A study of Rattus norvegicus with 24 samples.

Results

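Liver and white fat of rats that had gone 24 h without food were compared on 8 of the 24 expression arrays of the series, 4 of fasted liver and 4 of fasted white adipose tissue (WAT), chosen by sample title alone. Both groups came from male Wistar rats, an outbred laboratory strain, which were 7 weeks old at the start and 8 weeks old at sampling. All rats of the study, fed controls included, had been trained for 7 days to eat only between hours 10 and 16 of the day. On day 8 the fasted rats received no food, and tissues were taken at hour 16. The fat is named in the labels as perinephrial, a depot around the kidney. Arrays of both fasted groups carry the numbers 6, 8, 9 and 10, and values are listed in that order below. A second comparison set the difference between the tissues in fasted rats against that in fed rats, with 4 arrays of fed liver and 4 of fed WAT, numbered 1, 2, 4 and 5. Each array was made from total RNA of whole tissue, so that fewer cells of a type and less RNA per cell cannot be told apart in any result. P-values measure the spread between arrays of a group.

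Fasting divides fuel metabolism between these tissues. White fat breaks its stored triglyceride into fatty acids and glycerol and releases both into the blood. Liver takes them up, burns fatty acids in mitochondria and peroxisomes, turns the acetyl-CoA into ketone bodies for other tissues, and makes glucose from glycerol, lactate and amino acids, disposing of the amino nitrogen as urea. Liver exports triglyceride in lipoproteins, makes bile acids from cholesterol, and lacks the enzyme that activates ketone bodies for use as fuel.

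Values below are signals, the brightness of a gene's probe set scaled to a common level per array. A difference is the mean log2(signal + 1.8) of fasted liver minus that of fasted WAT, given with its standard error (n = 4 arrays a group), so that a positive value means higher in liver. A gene was called where its adjusted p in the limma fit over all 10418 genes tested was under 0.05. "At 2-fold" also asks for a log2 difference of 1 or more, and "at 8-fold" for 3 or more. Signals under 15.5, the level of the filter on dim genes, are imprecise, and a difference against a group that lies wholly below it depends on the pseudocount. For such genes the fold of the brighter group over that level is given as a lower bound.

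Hepatocyte and adipocyte markers matched the labels. All 11 hepatocyte markers tested were called at 2-fold higher in liver and all 11 adipocyte markers lower, with summed signals of 79642 to 105335 in fasted liver against 1134 to 3179 in fasted WAT for hepatocytes, and of 960 to 1155 in fasted liver against 38954 to 47949 in fasted WAT for adipocytes. Alb, the serum albumin gene, had 10917, 9255, 12190 and 11609 in fasted liver and still 1065, 1200, 2414 and 3089 in fasted WAT, where the other 10 hepatocyte markers stayed at or below 35.2. Fasted WAT arrays were not uniform. Skeletal muscle markers were high on WAT arrays 8 and 10 (mean log2 level of 10.98 and 11.91) and low on arrays 6 and 9 (4.159 and 3.967), beside 2.928 to 3.395 on the fasted liver arrays, where Myh1 alone was bright, and 3.47 to 3.908 on the fed WAT arrays. Summed muscle signals were 35590 and 62385 on WAT arrays 8 and 10, beside adipocyte sums of 38954 and 46264 on the same arrays. Lymphocyte markers were high on WAT arrays 6 and 8 (7.84 and 7.96) and low on arrays 9 and 10 (4.31 and 4.69), beside 4.33 to 4.67 in fasted liver. WAT arrays 6 and 8 were scanned on the same day, and arrays 9 and 10 on other days. Array 6 also stood apart in mesothelial markers (7.12, beside 5.55 to 5.84 on the other fasted WAT arrays). The same held for bile duct markers (6.27, beside 3.19 to 3.96). Markers of stroma differed too: 9 of 10 fibroblast and stellate cell genes and 7 of 9 endothelial genes were lower in liver at 2-fold. Of 11 macrophage markers 1 was higher and 1 lower at 2-fold. Their signals summed to 7628 to 9406 in fasted liver and 7583 to 10254 in fasted WAT. Their mean log2 level was 9.05 to 9.40 in fasted liver and 8.49 to 8.77 in fasted WAT. Of the adrenal cortex list, Star and Cyp11a1 passed the filter, with 1.28 to 21 and 1.03 to 10.5 in fasted liver and 1052 to 1827 and 74.3 to 123 in fasted WAT, and the other 4 lay below it on every array of fasted WAT. Pearson's r between arrays of a group ran from 0.963 to 0.979 in fasted liver and from 0.93 to 0.963 in fasted WAT, and from 0.439 to 0.495 between the tissues. The log2 ratio of 3' to 5' actin probes, a sign of RNA length, was 1.605 to 1.984 in fasted liver and 0.7872 to 1.321 in fasted WAT. The part of these ratios in the differences was not tested. The arrays of the 2 tissues share no scan day, so tissue and scan day cannot be told apart.

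**Figure D1:**
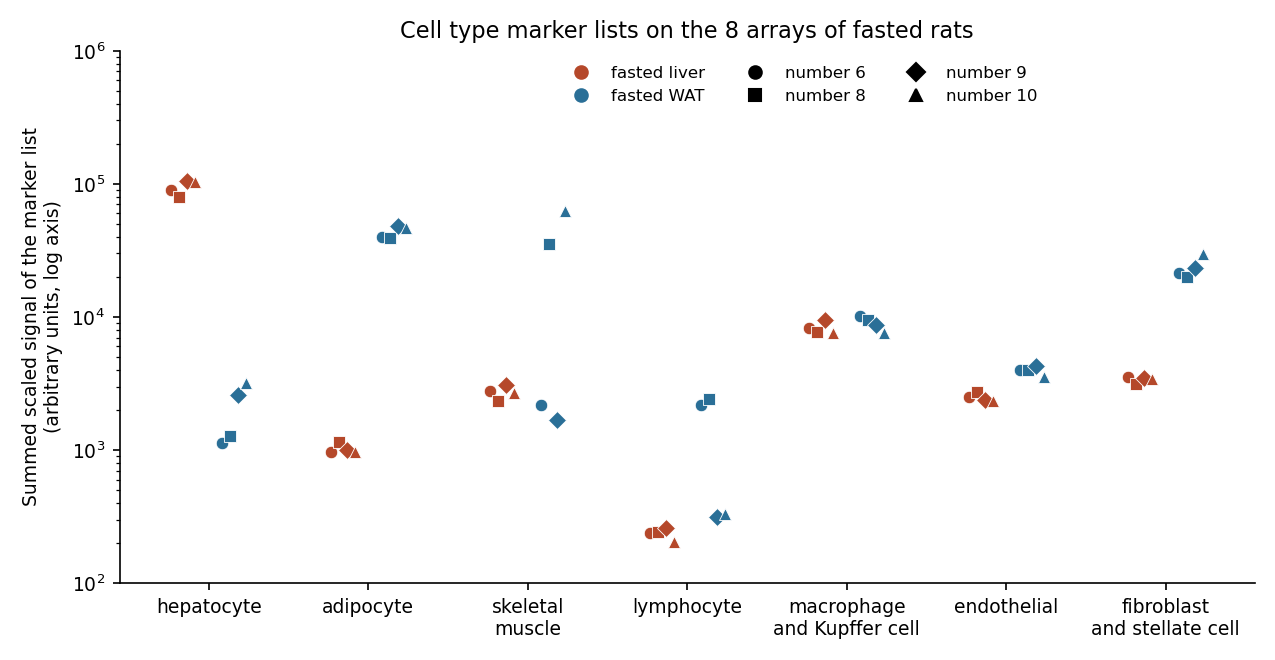
Summed scaled signal of 7 cell type marker lists (arbitrary units, log axis) on each array, with fasted liver left of fasted WAT in each pair and a symbol for each array number. Fasted WAT arrays 8 and 10 stand apart in muscle markers, and arrays 6 and 8 in lymphocyte markers, while the hepatocyte and adipocyte lists separate the tissues.

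Most measured genes differed between the tissues. Of 10418 genes, 6455 (62.0%) were called, 2470 of them (23.7%) higher and 3985 (38.3%) lower in liver. At 2-fold, 1383 (13.3%) were higher and 2294 (22.0%) lower. The 4 arrays of 1 tissue all lay above those of the other for 57.8% of genes, with liver above for 22.2% and WAT above for 35.6%. These are the shares against which each gene group below is read. At 8-fold, 519 (4.98%) were higher and 514 (4.93%) lower. In 252 of the 519 the 4 fasted WAT arrays all lay below the filter level, and in 185 of the 514 the 4 fasted liver arrays did. The balance of directions depends on the scaling: the median difference over all genes tested was -0.21 in the fit used here, -0.06 after quantile normalization and 0.20 after centring each array on its median, which called 3985 genes higher and 2532 lower. Small differences therefore have no settled direction. A named difference that turned under another of these scalings, and was called under either, is given with that value below. Without the 2 muscle-rich WAT arrays 1379 genes were higher and 2267 lower at 2-fold, and without the 2 lymphocyte-rich ones 1407 and 2171.

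**Figure D2:**
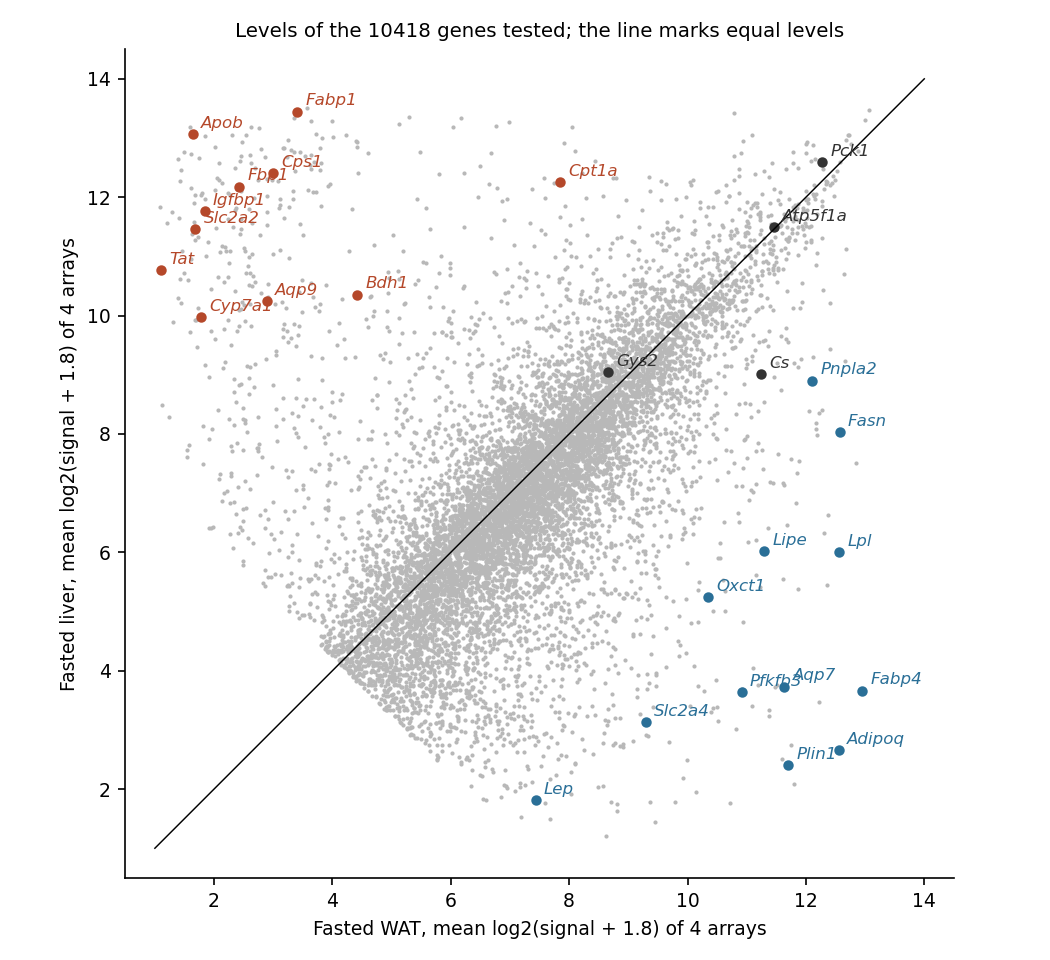
Mean log2(signal + 1.8) of 4 arrays in fasted liver (vertical axis) against fasted WAT (horizontal axis) for the 10418 genes tested, with the line of equal levels. Named genes in red were called at 8-fold higher in liver, those in blue at 8-fold lower, and those in black are discussed for their nearness to the line or, for Cs, for a difference of -2.24 ± 0.15.

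The 12 genes with the largest differences toward liver encode blood proteins (Serpina3l, Apob, Serpinc1, Fga, Ahsg), cytochromes P450 (Cyp2c22, Cyp2c6v1, Cyp3a18, Cyp1a2, Cyp2d2) and conjugating enzymes (Ugt2b35, Sult1c3). Serpina3l, a serine protease inhibitor, led with a difference of 11.59 ± 0.37 and at least 600-fold more signal in fasted liver (9364 ± 1303, SD, n = 4) than the filter level allows in fasted WAT. Members of the cytochrome P450 families are close in sequence, and the array may not separate them all. The 12 largest differences toward WAT were Adipoq, the hormone adiponectin; the lipid droplet coat Plin1; the fatty acid binding protein Fabp4; the retinol binding protein Rbp7; the matrix genes Postn, Mfap5 and Col5a3; the serine synthesis enzyme Psat1; and S100b, Sncg, Arxes1 and Lgals12. Adipoq had 1.19, 1.38, 14 and 8.78 in fasted liver, against 5533, 5498, 6701 and 6496 in fasted WAT (-9.90 ± 0.48, at least 389-fold lower in liver).

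The start sites of a few genes described below are shown as examples. Higher in liver were Cps1 of the urea cycle, the hepatic lipase Lipc and the liver fatty acid binding protein Fabp1. Igfbp1, an insulin-like growth factor binding protein, was also higher, and the droplet coat Plin1 was lower. All liver-side windows shown hold a motif match, though few promoters of genes higher in liver at 8-fold do, by the shares below. They are therefore not typical of that set, and Plin1 beside them is not a comparison. The sequences are from RefSeq on the rat assembly GRCr8, 5' to 3' on the gene's strand, from 250 bases before to 50 bases after the annotated start. Capitals mark a match to 1 of 4 motifs, each searched on both strands. They were HNF1 (GTTAAT, any base, ATT), HNF4 (CAAAGTCCA), a DR1 repeat read by nuclear receptors (AGGNCA, any base, AGGNCA) and the insulin response element (CAAAACAA). HNF1 and HNF4 are transcription factors of hepatocytes.
Cps1: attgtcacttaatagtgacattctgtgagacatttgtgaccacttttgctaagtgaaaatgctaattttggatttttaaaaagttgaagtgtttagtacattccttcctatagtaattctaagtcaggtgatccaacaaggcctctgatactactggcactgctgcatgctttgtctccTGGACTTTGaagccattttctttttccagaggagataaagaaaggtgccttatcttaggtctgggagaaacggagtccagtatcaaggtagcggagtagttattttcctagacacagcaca
Lipc: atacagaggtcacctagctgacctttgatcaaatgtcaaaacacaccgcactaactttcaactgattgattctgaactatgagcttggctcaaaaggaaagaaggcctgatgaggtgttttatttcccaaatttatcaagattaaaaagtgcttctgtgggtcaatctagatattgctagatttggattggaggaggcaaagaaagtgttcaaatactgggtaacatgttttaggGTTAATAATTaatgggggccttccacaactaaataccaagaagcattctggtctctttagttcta
Fabp1: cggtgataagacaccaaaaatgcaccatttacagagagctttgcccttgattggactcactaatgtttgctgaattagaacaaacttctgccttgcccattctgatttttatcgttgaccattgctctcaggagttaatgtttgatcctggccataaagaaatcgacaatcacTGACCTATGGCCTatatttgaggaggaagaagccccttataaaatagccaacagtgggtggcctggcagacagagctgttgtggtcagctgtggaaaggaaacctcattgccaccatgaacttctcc
Igfbp1: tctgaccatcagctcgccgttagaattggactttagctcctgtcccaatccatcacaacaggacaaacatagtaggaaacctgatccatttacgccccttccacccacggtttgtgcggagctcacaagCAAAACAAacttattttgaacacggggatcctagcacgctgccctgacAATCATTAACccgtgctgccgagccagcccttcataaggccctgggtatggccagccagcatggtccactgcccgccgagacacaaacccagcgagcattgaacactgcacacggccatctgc
Plin1: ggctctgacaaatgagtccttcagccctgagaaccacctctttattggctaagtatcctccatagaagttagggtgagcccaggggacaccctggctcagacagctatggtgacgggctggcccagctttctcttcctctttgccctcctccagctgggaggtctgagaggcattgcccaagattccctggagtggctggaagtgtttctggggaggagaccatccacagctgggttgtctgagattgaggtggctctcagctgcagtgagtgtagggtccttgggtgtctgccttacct
Cps1 lies at chr9:76063613-76063912 and carries an HNF4 match, Lipc at chr8:80516236-80516535 an HNF1 match, Fabp1 at chr4:104749090-104749389 a DR1 match, and Igfbp1 at chr14:86261027-86261326 an insulin response and an HNF1 match. The window of Plin1, at chr1:143086099-143086398, holds none of the 4. Promoters were found for 8732 of the genes tested. HNF1 letters stood in 14 of 425 promoters (3.29%) of genes higher in liver at 8-fold and in 0 of 382 of those lower, beside 25 of 8732 (0.286%) overall. For HNF4 the counts were 12 of 425 (2.82%), 0 of 382 and 29 of 8732 (0.332%). DR1 matches were few, with 4 (0.941%), 3 (0.785%) and 26 (0.298%). Insulin response matches numbered 6, 6 and 134 (1.41%, 1.57% and 1.53%). Median GC content was 54% in the genes higher in liver, 60.3% in those lower and 61% in all. A match describes letters, not a bound site.

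Glucose output. Of 10 gluconeogenesis genes tested, 4 were higher in liver at 2-fold and 1 lower, with a median difference of 0.32. Under quantile normalization 4 were higher and 3 lower, with a median of -0.07. Fbp1, which encodes the fructose bisphosphatase of the pathway, had 5009, 4203, 4652 and 4715 in fasted liver, against 3.5, 1.22, 11.7 and 1.97 in fasted WAT. All liver arrays were bright and all WAT arrays below the filter level. The difference was 9.76 ± 0.38 (adjusted p = 3.55e-09), or at least 299-fold. Sds, the serine dehydratase that feeds pyruvate to the pathway, had 1374, 1437, 2274 and 836 in fasted liver and 2.67, 2.87, 1.38 and 1.5 in fasted WAT. Slc37a4, the carrier that brings glucose 6-phosphate to the last enzyme of glucose output, was also higher (2.87 ± 0.16), as was Got1 (4.64 ± 0.27), the cytosolic aspartate aminotransferase.

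Pck1, the phosphoenolpyruvate carboxykinase that serves glucose synthesis in liver and the making of glycerol 3-phosphate in fat, was bright in both tissues. Its signals were 6073, 5361, 6199 and 7152 in fasted liver and 4560, 4798, 5294 and 5253 in fasted WAT. The groups did not overlap, yet the difference was only 0.31 ± 0.10 (adjusted p = 0.0193), and it turned to -0.19 (adjusted p = 0.0445) after quantile normalization. Without the muscle-rich arrays it was not called (adjusted p = 0.0655). No order of the tissues is therefore given for it. Pc, the pyruvate carboxylase upstream of Pck1, was lower in liver, at 910, 888, 898 and 936 in fasted liver and 1416, 1717, 1694 and 2098 in fasted WAT (-0.92 ± 0.12), and G6pc3, the widely expressed glucose 6-phosphatase, was lower by more (-2.57 ± 0.16).

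Glycerol. The channels through which glycerol leaves fat and enters liver were divided without overlap. Aqp9, the liver channel, had 1392, 963, 1298 and 1218 in fasted liver, against 10.2, 9.29, 2.34 and 3.72 in fasted WAT. Aqp7, the fat channel, showed the opposite, with 11.2, 7.96, 9.01 and 20.7 in fasted liver and 3232, 2612, 3622 and 3357 in fasted WAT. Their differences were 7.35 ± 0.32 and -7.91 ± 0.24 (adjusted p of 9.13e-09 and 5.98e-10). Gk, the glycerol kinase that lets a tissue reuse glycerol, had 1022, 721, 717 and 938 in fasted liver and 50.9, 49.2, 54.4 and 71.4 in fasted WAT, a difference of 3.87 ± 0.17. Gpd1, the cytosolic glycerol 3-phosphate dehydrogenase, was lower in liver (-1.12 ± 0.13), and its mitochondrial partner Gpd2 was not called (0.44 ± 0.21, adjusted p = 0.0952), though it was called higher under quantile normalization (0.72), after median centring (0.85) and without WAT array 8 (0.61).

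Amino acids and urea. Of 31 genes of amino acid catabolism, 28 were higher in liver at 2-fold and 2 lower, with a median of 6.39, and all 8 urea cycle genes tested were higher, with a median of 6.88. Tat, the tyrosine aminotransferase, had 2204, 1903, 1630 and 1346 in fasted liver, and 0.25, 0.24, 0.345 and 0.598 in fasted WAT. Ftcd, of histidine breakdown, gave the largest difference of the list (10.35 ± 0.33), followed by Tat (9.66 ± 0.19) and Aass, of lysine breakdown (9.60 ± 0.25). Cps1, which makes the carbamoyl phosphate that enters the cycle, had 4822, 4672, 6454 and 5869 in fasted liver, against 3.37, 6.06, 9.18 and 7.33 in fasted WAT, a difference of 9.40 ± 0.22 and at least 349-fold. Otc and Ass1, the next enzymes of the cycle, differed by 10.24 ± 0.16 and 8.56 ± 0.18. The 2 genes lower in liver were Glul, the glutamine synthetase (-1.31 ± 0.13), and Mat2a (-1.25 ± 0.15), the methionine adenosyltransferase of tissues other than liver, and neither reached 2-fold after median centring. Glul had 1961, 1704, 2088 and 1653 in fasted liver and 4083, 4427, 5801 and 4223 in fasted WAT, without overlap.

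Differences were smaller in the breakdown of branched-chain amino acids. Of 17 genes tested, 3 were higher in liver at 2-fold (5 after median centring) and 1 lower, and the median of 0.28 stood beside -0.21 for all genes tested. The exception was the first step: Bcat2, the mitochondrial aminotransferase, had 10.8, 5.45, 7.06 and 8.56 in fasted liver and 421, 343, 417 and 237 in fasted WAT (-5.18 ± 0.24, at least 22.3-fold lower in liver). Ppm1k, the phosphatase that switches on the next enzyme complex, was higher in liver (3.44 ± 0.20), while the kinase that switches it off, Bckdk, was lower (-0.96 ± 0.13). The complex's own subunits Bckdha (0.43 ± 0.10), Bckdhb (-0.05 ± 0.12) and Dbt (0.12 ± 0.24) differed by less than 0.5, and Bckdhb was at 0.36 after median centring (adjusted p = 0.021).

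Ketone bodies. Genes for making and for using ketone bodies lay on opposite sides. Bdh1, which turns acetoacetate into 3-hydroxybutyrate, had 1359, 1377, 1156 and 1351 in fasted liver and 41.2, 23.5, 18.5 and 7.6 in fasted WAT, a difference of 5.94 ± 0.36 (adjusted p = 1.26e-07). Oxct1, which activates acetoacetate for use as fuel, had 34.9, 33.8, 34.7 and 41.9 in fasted liver, against 1435, 1139, 1221 and 1424 in fasted WAT, a difference of -5.10 ± 0.13. Aacs, which channels acetoacetate into lipid synthesis in the cytosol, was likewise lower in liver, with 10.6 to 16.7 in fasted liver and 562 to 912 in fasted WAT (-5.53 ± 0.20). The monocarboxylate carriers Slc16a1 (1.44 ± 0.13) and Slc16a7 (2.72 ± 0.17) were higher in liver, and Slc16a6 was not called (-0.67 ± 0.29), though it was called lower without WAT array 10 (-0.92).

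Fatty acid oxidation. The carnitine shuttle, which carries fatty acids into mitochondria, had 5 of 7 genes higher in liver at 2-fold and 1 lower. Cpt1a, the gate of the shuttle in liver, had 4093, 4108, 5978 and 5680 in fasted liver and 264, 211, 243 and 197 in fasted WAT. Its difference was 4.42 ± 0.15 (adjusted p = 1.66e-09). Cpt1b, the form of muscle and fat, had 49.9, 64.9, 29 and 39.1 in fasted liver and 153, 220, 153 and 370 in fasted WAT, a difference of -2.21 ± 0.31 whose WAT values were highest on the muscle-rich arrays 8 and 10; without them it was -1.76. Carnitine uptake by Slc22a5 (2.33 ± 0.31) and the inner enzyme Cpt2 (2.02 ± 0.15) were higher in liver too.

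Inside the mitochondrion the tissues were closer. Of 16 genes of beta-oxidation, 14 were called higher and none lower, but only 5 of them at 2-fold, with a median of 0.81. Median centring called 16 higher, 10 of them at 2-fold, and quantile normalization called 10 higher and 2 lower. Acadm, the medium-chain acyl-CoA dehydrogenase, led with 4400, 4825, 5150 and 4524 in fasted liver and 1011, 1003, 1071 and 1186 in fasted WAT (2.14 ± 0.09). The subunits of the trifunctional protein, Hadha (0.46 ± 0.10) and Hadhb (-0.04 ± 0.10), and the electron carrier subunit Etfa (0.10 ± 0.09) have no settled order. Hadhb was called at -0.46 under quantile normalization and at 0.37 after median centring, and Etfa at -0.26 and 0.50, while Hadha was not called under quantile normalization (0.10). Peroxisomal oxidation had 7 of 12 genes higher at 2-fold. Ehhadh, the bifunctional enzyme, had 3923, 4580, 4383 and 5144 in fasted liver and 115, 162, 227 and 173 in fasted WAT (4.76 ± 0.18), Acox2, the oxidase of bile acid side chains, differed by 6.39 ± 0.27, and Amacr, the racemase for branched acids, by 4.76 ± 0.15. The one gene lower in liver was Abcd2, a peroxisomal fatty acid transporter, at 9.21, 7.84, 13.3 and 18.2 in fasted liver and 670, 710, 673 and 792 in fasted WAT (-5.73 ± 0.22).

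Lipolysis and lipid droplets. Of 15 genes, 9 were lower in liver at 2-fold and 2 higher (median -2.43), or 8 and 4 after median centring. Pnpla2, which encodes the lipase of the first step, had 551, 725, 535 and 242 in fasted liver and 3874, 4094, 4783 and 5038 in fasted WAT (-3.21 ± 0.28, adjusted p = 2.16e-06). Lipe, the hormone-sensitive lipase of the second step, had 77.2, 83.5, 51 and 47.4 in fasted liver and 2302, 2442, 3095 and 2305 in fasted WAT (-5.28 ± 0.19); a dimmer probe set of the gene gave 0.56. Mgll, the lipase of the last step, differed by -2.81 ± 0.19. All 3 lipases and Abhd5 (-1.37 ± 0.13), the activator of Pnpla2, were lower in liver without overlap, whereas G0s2, an inhibitor of Pnpla2, was higher (0.90 ± 0.14). Among droplet proteins, Plin1 had 1.06, 6.78, 5.51 and 2.55 in fasted liver and 2994, 3106, 3392 and 3821 in fasted WAT, at least 214-fold lower in liver, and Plin4 differed by -7.23 ± 0.28. Cideb, of hepatocyte droplets, was higher (7.08 ± 0.35) and its relatives Cidea (-2.55 ± 0.25) and Cidec (-2.83 ± 0.12) were lower. Plin2 was higher by its brighter probe set (1.74 ± 0.14) and lower by the other (-2.10), so no direction is given for it. Ces1d, a carboxylesterase that hydrolyses triglyceride, was at 4622, 4254, 6110 and 5032 in fasted liver and 4778, 4729, 6028 and 5390 in fasted WAT and was not called (-0.07 ± 0.12). It was called lower in liver under quantile normalization (-0.55) and higher after median centring (0.33), so its order is not settled.

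Genes of fatty acid uptake and binding lay on both sides: of 19 tested, 7 were higher in liver at 2-fold and 9 lower. Fabp1, the fatty acid binding protein of liver, had 10056, 8926, 13201 and 13114 in fasted liver and 5.28, 4.49, 43.8 and 4.42 in fasted WAT, and Fabp4 had 10.8, 10.5, 10.9 and 11.3 in fasted liver and 7023, 6861, 8787 and 9360 in fasted WAT. Those differences, 10.04 ± 0.55 and -9.29 ± 0.13, are among the widest in the data. Lpl, the lipase that releases fatty acids from lipoproteins in the capillaries of fat, had 51.3, 67.4, 70.8 and 62.1 in fasted liver and 5642, 5593, 6424 and 6467 in fasted WAT (-6.55 ± 0.12), and Gpihbp1, which anchors it to the vessel wall, differed by -7.70 ± 0.40. Lipc, the hepatic lipase, took the opposite side (9.35 ± 0.31). The transport proteins Slc27a2 (8.15 ± 0.22) and Slc27a5 (8.91 ± 0.32) were higher in liver, and Slc27a1 (-4.27 ± 0.18) and Cd36 (-3.98 ± 0.14) lower. Acsl1, an acyl-CoA synthetase, had 5666, 4987, 6146 and 6147 in fasted liver and 4616, 4790, 5169 and 5481 in fasted WAT. Its difference of 0.19 was not called, but it was called at -0.30 under quantile normalization and at 0.60 after median centring. Fabp3, a muscle and heart form, followed the muscle-rich arrays: its difference of -2.42 ± 0.74 became -1.08 without them and was not called (adjusted p = 0.163).

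**Figure D3:**
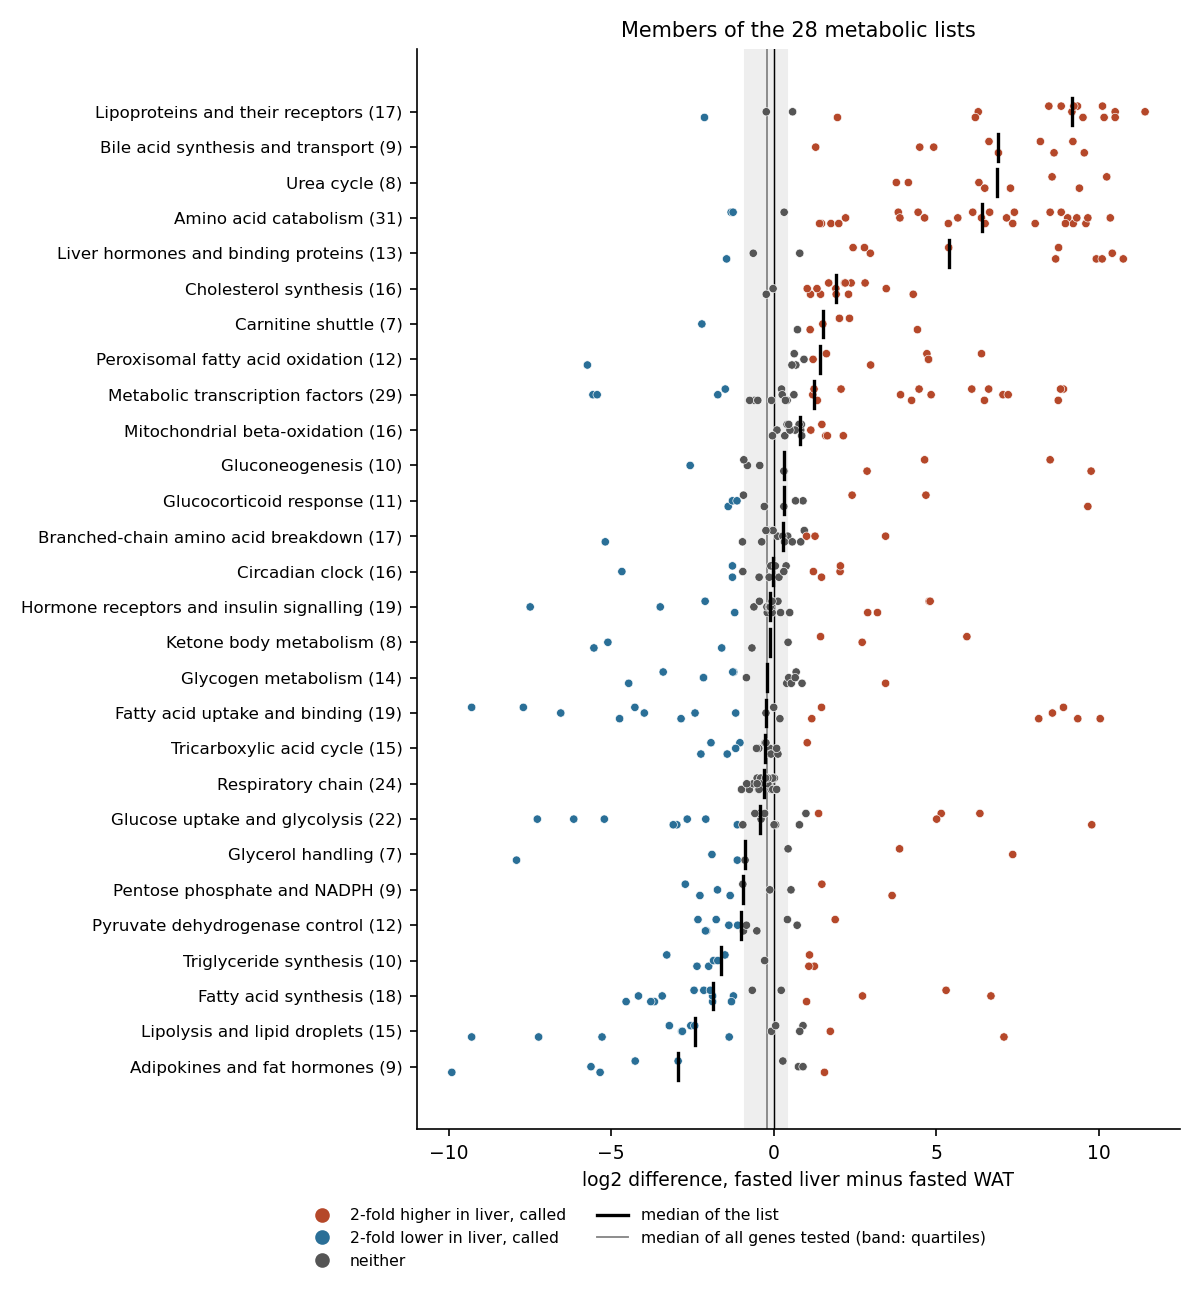
Log2 difference of each tested member of 28 metabolic lists, fasted liver minus fasted WAT, with the number tested in brackets and the list median as a black bar. Lipoprotein, bile acid, urea cycle and amino acid lists lie far to the right of the median of all genes (-0.21), lipolysis, triglyceride and fatty acid synthesis lists to its left, and the respiratory chain clusters around it.

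Lipid synthesis. Fatty acid synthesis had 12 of 18 genes lower in liver at 2-fold and 4 higher (median -1.88). Fasn, the fatty acid synthase, had 257, 234, 230 and 329 in fasted liver and 5484, 5478, 6465 and 7023 in fasted WAT, a difference of -4.54 ± 0.14 (adjusted p = 5.81e-10). Me1 (-4.16 ± 0.21), which supplies NADPH, Elovl6 (-3.78 ± 0.20), an elongase, and Acaca (-3.67 ± 0.13), the acetyl-CoA carboxylase of synthesis, were lower by similar amounts. Scd, the desaturase, varied widely in liver, at 1349, 881, 153 and 710 in fasted liver and 5800, 6023, 6731 and 7502 in fasted WAT (-3.43 ± 0.52). The 4 genes higher in liver were Elovl2 (6.68 ± 0.30), Fads2 (5.30 ± 0.29) and Fads1 (2.73 ± 0.15), of long polyunsaturated fatty acids, and the transcription factor Mlxipl (1.01 ± 0.20). Mlxipl lies at the threshold of 2-fold. Only 3 genes were higher at 2-fold without WAT array 8, without liver array 6 or 8, and with a pseudocount of 16. The same held without the muscle-rich or the lymphocyte-rich arrays, while 4 stayed called higher in each of these fits. Elovl5, another elongase of the list, was not called higher. Of 9 genes of the pentose phosphate and NADPH list 4 were lower and 2 higher at 2-fold, led by the transketolase Tkt (-2.72 ± 0.15) and the phosphogluconate dehydrogenase Pgd (-2.27 ± 0.14) among the lower. H6pd, which makes NADPH inside the endoplasmic reticulum, was higher (3.64 ± 0.14). In triglyceride synthesis 6 of 10 were lower and 3 higher, with Agpat3 (-3.29 ± 0.24) and Dgat1 (-2.36 ± 0.13) the lowest and Gpat4 (1.25 ± 0.19) the highest, while Dgat2 had 2168, 2328, 2206 and 2182 in fasted liver and 2168, 2783, 2782 and 3180 in fasted WAT. It was not called (-0.28 ± 0.11), but was under quantile normalization (-0.69) and without WAT array 6 (-0.39).

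Cholesterol, bile acids and lipoproteins. Cholesterol synthesis went the other way from fatty acid synthesis: 14 of 16 genes were higher in liver at 2-fold and none lower (median 1.91). Tm7sf2 (4.29 ± 0.19), Sc5d (3.46 ± 0.16) and Ebp (2.81 ± 0.19), enzymes of the last steps, led the list. All 9 bile acid genes tested were higher (median 6.91). Cyp7a1, the rate-limiting enzyme, had 1021, 867, 905 and 1276 in fasted liver and 1.22, 4.72, 0.737 and 0.975 in fasted WAT, at least 64.9-fold, Baat, which joins bile acids to glycine or taurine, differed by 9.55 ± 0.41, and Slc10a1, the bile acid uptake carrier, by 9.20 ± 0.48. Among lipoprotein genes 14 of 17 were higher (median 9.17). Apob, the backbone of secreted lipoproteins, had 7555, 7627, 9454 and 9947 in fasted liver and 4.29, 0.805, 0.62 and 0.684 in fasted WAT, and Mttp, which loads it with lipid, differed by 9.23 ± 0.25. Apoe was bright in both tissues, at 8487, 7306, 9087 and 9311 in fasted liver and 2548, 2475, 2081 and 1726 in fasted WAT (1.96 ± 0.13), and Pltp, the phospholipid transfer protein, was the one gene lower (-2.13 ± 0.18).

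Glucose use. Of 22 genes of glucose uptake and glycolysis, 5 were higher in liver at 2-fold and 8 lower. Slc2a2, the glucose carrier that lets liver release glucose, had 2285, 2240, 3374 and 3639 in fasted liver and 0.25, 0.641, 1.13 and 5.41 in fasted WAT (9.78 ± 0.36). Slc2a4, the insulin-responsive carrier, had 13, 5.57, 11.7 and 2.28 in fasted liver and 624, 584, 510 and 817 in fasted WAT (-6.15 ± 0.37). Pfkfb3, which makes an activator of glycolysis, differed by -7.27 ± 0.18, with 10.3, 9.29, 9.58 and 14.2 in fasted liver and 1527, 2328, 2297 and 1682 in fasted WAT. Ldhb (-5.21 ± 0.18) and Aldoa (-2.98 ± 0.16) were lower in liver and Pklr, the liver pyruvate kinase, higher (5.01 ± 0.25). Pfkm, the muscle phosphofructokinase, was at 23.4, 26.7, 28.8 and 32.5 in fasted liver and 99.5, 390, 117 and 830 in fasted WAT, and its difference of -3.09 ± 0.57 was -1.90 without the muscle-rich arrays. Enzymes shared by glycolysis and its reverse, such as Pgk1 (0.01 ± 0.20), Eno1 (-0.39 ± 0.09) and Pgam1 (-0.58 ± 0.09), differed by less than 0.6, and Eno1 was at 0.02 after median centring.

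At the entry to the citrate cycle 6 of 12 genes of pyruvate dehydrogenase control were lower in liver at 2-fold and 1 higher, or 4 and 2 after median centring. The subunits Pdha1 (-2.07 ± 0.10), Pdhb (-1.11 ± 0.09) and Pdhx (-2.33 ± 0.16) were lower, as was the inhibitory kinase Pdk1 (-2.10 ± 0.11). Pdk4, the kinase known to rise in fasting, was at 675, 1289, 1537 and 1581 in fasted liver and 1120, 2133, 1930 and 1918 in fasted WAT, which overlap (-0.52 ± 0.28, adjusted p = 0.133). It was called lower in liver under quantile normalization (-0.81, adjusted p = 0.0233) and without WAT array 6 (-0.72, adjusted p = 0.0375). In the citrate cycle 5 of 15 were lower and 1 higher, or 3 and 1 after median centring. Cs, the citrate synthase, had 568, 666, 414 and 442 in fasted liver and 2314, 2259, 2838 and 2353 in fasted WAT, and Idh3g, a subunit of the NAD-linked isocitrate dehydrogenase, differed by -1.93 ± 0.09. In the respiratory chain none of 24 subunits passed 2-fold in either direction, against 35.3% of all genes tested, and all lay between -0.99 (Ndufa5) and 0.09 (Ndufs3). Atp5f1a, of ATP synthase, had 3129, 2764, 2806 and 2873 in fasted liver and 2686, 2643, 2777 and 3143 in fasted WAT. Its difference of 0.04 was not called, and was called at -0.39 under quantile normalization and at 0.45 after median centring. Of the 24, 0 were called higher and 12 lower (median -0.31), against 0 and 21 under quantile normalization (median -0.61, 1 past 2-fold) and 8 and 3 after median centring (median 0.10).

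Glycogen genes were mixed, with 1 of 14 higher and 6 lower at 2-fold, or 4 and 4 after median centring. Without the muscle-rich WAT arrays 2 were higher and 4 lower at 2-fold, and the number called lower fell from 7 to 4. Ppp1r3b, which brings the phosphatase to liver glycogen, had 1134, 983, 710 and 910 in fasted liver and 78.8, 74.9, 102 and 80.5 in fasted WAT (3.44 ± 0.16). Gys2, known as the liver glycogen synthase, was at 462, 555, 673 and 448 in fasted liver and 277, 373, 614 and 403 in fasted WAT, and the tissues overlapped (0.40 ± 0.22, adjusted p = 0.148). It was called higher after median centring (0.80) and without WAT array 9 (0.60). Gys1 was lower in liver (-3.40 ± 0.51), and so was Pygl, named the liver phosphorylase, at 798, 638, 543 and 666 in fasted liver and 1541, 1352, 1618 and 1810 in fasted WAT (-1.26 ± 0.13). Pygm, the muscle phosphorylase, was high on the muscle-rich WAT arrays alone, and its call ended without them (-1.31, adjusted p = 0.104).

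Hormones and their receptors. Of 9 fat hormones tested, 5 were lower in liver at 2-fold and 1 higher (3 after median centring). Lep, which encodes leptin, had 1.39, 1.69, 2.93 and 1.07 in fasted liver and 259, 275, 93.2 and 128 in fasted WAT (-5.62 ± 0.38), and Cfd, the complement protease adipsin, had 238, 191, 186 and 123 in fasted liver and 6594, 6483, 8637 and 7885 in fasted WAT. Rarres2, the secreted protein chemerin, was the one higher in liver (1.56 ± 0.12), and Rbp4, the retinol carrier of blood, was bright in both tissues (0.90 ± 0.10). Of 13 liver hormones and binding proteins 10 were higher and 1 lower. Igfbp1, which binds insulin-like growth factor, had 3033, 3467, 5108 and 2711 in fasted liver and 0.255, 0.572, 1.6 and 8.15 in fasted WAT, at least 224-fold. Igf1 itself was bright in both, at 5349, 4878, 7292 and 7457 in fasted liver and 3370, 3002, 3387 and 4559 in fasted WAT (0.80 ± 0.17, adjusted p = 0.00175). Fgf21, a hormone of the fasted liver, was dim in both, at 60.4, 140, 75.6 and 121 in fasted liver and 13.2, 16.3, 12 and 24.3 in fasted WAT, and its difference of 2.44 ± 0.31 was called. Angptl8, an inhibitor of lipoprotein lipase, was lower in liver (-1.45 ± 0.20).

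The glucagon receptor Gcgr had 388, 390, 298 and 305 in fasted liver and 40.6, 29.2, 34.3 and 41.6 in fasted WAT (3.19 ± 0.16). The beta3-adrenergic receptor Adrb3, which starts lipolysis, had 1.41, 1.94, 9.23 and 5.91 in fasted liver and 871, 777, 1411 and 1102 in fasted WAT (-7.49 ± 0.38). Of the 19 receptor and insulin signalling genes 4 were higher and 4 lower at 2-fold, with Fgfr4 (4.81 ± 0.48), the alpha1B-adrenergic receptor Adra1b (4.78 ± 0.21) and Lepr (2.89 ± 0.35) on the liver side and Fgfr1 (-3.49 ± 0.14) and Igf1r (-2.11 ± 0.18) on the WAT side. Among insulin pathway genes, Insr differed by 0.49 ± 0.16 (adjusted p = 0.0192; 0.0591 without WAT array 6 and 0.058 without liver array 9), and Irs1 (-0.14 ± 0.39), Irs2 (0.13 ± 0.25) and Pik3r1 (-0.05 ± 0.39) were not called.

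Of 29 metabolic transcription factors, 16 were higher in liver at 2-fold and 4 lower. Hnf4a had 2443, 2834, 3610 and 3324 in fasted liver and 4.88, 5.98, 0.728 and 9.98 in fasted WAT (8.91 ± 0.38), and Onecut1 (8.82 ± 0.39) and Creb3l3 (8.75 ± 0.39) stood beside it. Pparg, the master regulator of fat cells, had 44.1, 24.7, 24.7 and 30.9 in fasted liver and 1394, 1215, 1625 and 1327 in fasted WAT (-5.43 ± 0.19), and Ebf1 differed by -5.56 ± 0.20. These were named for the size of their differences, and the median of the list was 1.24. Among factors known from fasting responses, Ppargc1a (1.24 ± 0.24), Klf15 (1.34 ± 0.18) and Cebpb (1.20 ± 0.19) were higher in liver, near that median. Foxo1 was lower (-0.60 ± 0.13) and was not called after median centring (-0.19).

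Clock and glucocorticoid genes showed little common direction. Of 16 clock genes 4 were higher and 3 lower at 2-fold, with a median of -0.02. Only 1 was lower at 2-fold under quantile normalization or median centring, with medians of 0.13 and 0.39. Bhlhe41, a repressor, had 15.7, 0.361, 1.83 and 13.2 in fasted liver and 179, 121, 151 and 256 in fasted WAT (-4.67 ± 0.62), while Nfil3 (2.05 ± 0.20), Hlf (2.04 ± 0.19) and Bhlhe40 (1.47 ± 0.16) were higher in liver. Per2 was at 354, 444, 384 and 421 in fasted liver and 381, 526, 548 and 345 in fasted WAT and was not called. Of 11 glucocorticoid-responsive genes 3 were higher and 3 lower: the metal-binding Mt2A (4.68 ± 0.15), Tat and Errfi1 (2.41 ± 0.16) against Fkbp5 (-1.40 ± 0.24), Per1 (-1.27 ± 0.45) and Tsc22d3 (-1.13 ± 0.18). Per1 was no longer called without the muscle-rich or the lymphocyte-rich arrays, without any 1 of WAT arrays 6 and 8 and liver arrays 9 and 10, or under either other scaling (adjusted p from 0.0634 to 0.196). Without WAT array 8 only 1 gene was lower at 2-fold, and after median centring 5 were higher and none lower.

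Of 28 pairs of a gene known from liver and a relative known from fat or other tissues, 20 had both members tested. In 12 of these the liver member was higher and the other lower, both at 2-fold. They include Fabp1 and Fabp4, Slc2a2 and Slc2a4, Aqp9 and Aqp7, Cpt1a and Cpt1b, Lipc and Lpl, Mat1a (9.32 ± 0.40) and Mat2a, Pfkfb1 (1.38 ± 0.17) and Pfkfb3, and Gcgr and Adrb3. In 3 pairs both members were lower in liver: Pygl and Pygb (-2.16 ± 0.15), Acacb (-1.24 ± 0.29) and Acaca, and Scd and Scd2 (-2.45 ± 0.25). The other 5 had a member that did not pass 2-fold: Gys2 beside Gys1, Ldha (0.79 ± 0.12) beside Ldhb, Rxra (2.07 ± 0.21) beside Rxrg (-0.07 ± 0.27), Irs2 beside Irs1, and Pdk2 (0.72 ± 0.17) beside Pdk4. Ppara, Hk2, Bcat1 and Arg2 lay below the filter. The pairs were chosen with results of these data known, and 1 of the 12, Plin2 and Plin1, rests on probe sets of Plin2 that disagree.

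**Figure D4:**
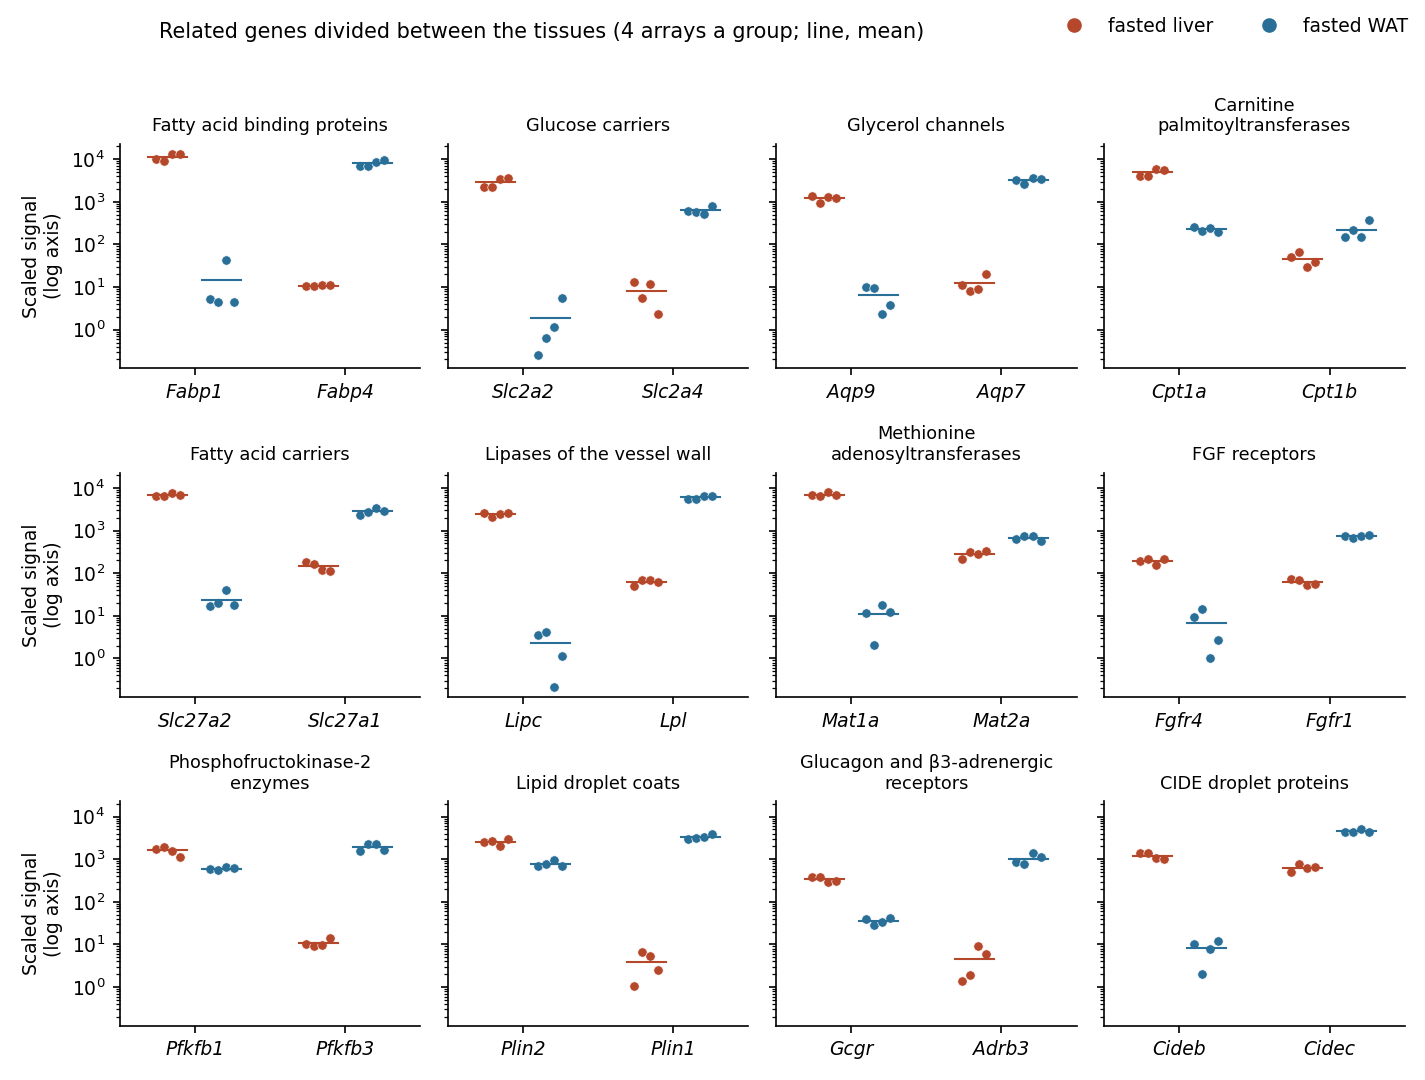
Scaled signal (log axis) of both members of the 12 divided pairs, with 1 point an array, fasted liver left of fasted WAT for each gene, and lines at the means of 4 arrays. The liver points lie above the WAT points for the left gene of each panel and below them for the right gene, as for Fabp1 and Fabp4.

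Fasted against fed rats. The difference between the tissues was next set against that in fed rats, as an interaction over 16 arrays with 10402 genes tested. It changed for 772 genes (7.42%), 438 (4.21%) toward liver in fasted rats and 334 (3.21%) toward WAT. Without the 2 muscle-rich WAT arrays the counts were 290 and 243. In the sentences below the change is the difference in fasted rats minus that in fed rats, in log2. Fasted arrays are shared with the comparison above, so that the difference in fasted rats is the same measurement.

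Igfbp1 changed most toward liver (5.77 ± 0.73, adjusted p = 0.000105): its signals were 3033, 3467, 5108 and 2711 in fasted liver, against 43.7, 52.4, 181 and 37.8 in fed liver, while all WAT arrays lay below 10. Sds followed (4.82 ± 0.59), with 1374, 1437, 2274 and 836 in fasted liver and 67.3, 59.5, 82.2 and 76.4 in fed liver. The fasted and fed liver arrays of both genes did not overlap. Nim1k (4.33 ± 0.72), a protein kinase, Colq (3.72 ± 0.42), Rab30 (3.58 ± 0.26), a small GTPase, and Pex11a (3.20 ± 0.26), of peroxisome division, complete the 6 largest. Rab30 had 654, 929, 836 and 1152 in fasted liver and 50.6, 37.3, 53.4 and 46.1 in fed liver, and 82.7, 74, 79.7 and 57.9 in fasted WAT and 60, 47.2, 42.2 and 42.4 in fed WAT, so that the tissues were level in fed rats (-0.03) and apart in fasted ones (3.55).

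Of fatty acid synthesis genes 9 of 18 changed toward WAT and 1 toward liver. Fasn had 257, 234, 230 and 329 in fasted liver and 2278, 4179, 3052 and 4236 in fed liver, against 5484, 5478, 6465 and 7023 in fasted WAT and 5710, 7173, 6737 and 8456 in fed WAT. The log2 change between fasted and fed was -3.67 in liver and -0.19 in WAT, and the interaction was -3.48 ± 0.25 (adjusted p = 6.83e-07). Srebf1, the transcription factor of the pathway, was higher in liver than in WAT of fed rats (1.16) and lower in fasted ones (-1.88), an interaction of -3.05 ± 0.30. Elovl6 (-2.33 ± 0.33), Scd (-2.55 ± 0.59), Thrsp (-1.90 ± 0.20) and Acly (-1.81 ± 0.19) changed the same way, and so did Pklr of glycolysis (-2.53 ± 0.49). The call of Scd ended without the muscle-rich arrays (-2.49, adjusted p = 0.0522). Mlxipl went toward liver (2.25 ± 0.33), with -0.30 in liver and -2.55 in WAT between fasted and fed.

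Some genes whose difference was small or not called in fasted rats stood further apart in fed rats. Pdk4 had 675, 1289, 1537 and 1581 in fasted liver and 566, 431, 492 and 267 in fed liver, and 1120, 2133, 1930 and 1918 in fasted WAT and 57.6, 65.6, 87.7 and 77.6 in fed WAT. The difference in fed rats was 2.54, and the interaction was -3.06 ± 0.39 (adjusted p = 0.000118). Per2 behaved alike (-2.02 ± 0.25), its log2 change between fasted and fed being -1.20 in liver and 0.81 in WAT. Dbp, a clock output factor, was not called in fasted rats (0.16 ± 0.21; called at 0.57 after median centring) and lower in liver in fed ones (-1.64). Gpt, the alanine aminotransferase, had a difference of 0.32 in fasted rats, not called under quantile normalization (0.05), and -1.10 in fed ones, and Gpt2, its mitochondrial form, moved the other way (-1.97 ± 0.24). The call of Gpt in fasted rats also ended without WAT array 6 or 9 or liver array 9 (adjusted p from 0.052 to 0.0595). It ended as well without the lymphocyte-rich arrays, with all 24 arrays in the fit, and with scan day as a random block.

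Of 7 carnitine shuttle genes 4 changed toward liver, as did 3 of 16 of beta-oxidation and 3 of 15 of lipolysis and droplets. In these 3 lists none changed toward WAT. Peroxisomal oxidation had 2 of 12 toward liver and 1, Ehhadh, toward WAT (-1.29). Of 19 genes of fatty acid uptake and binding none changed toward liver and 1 toward WAT. Cpt1a had 790, 637, 405 and 432 in fed liver beside the fasted values given above, and its interaction was 1.95 ± 0.30. Slc22a5 (1.88 ± 0.40), Crat (1.77 ± 0.24) and Slc25a20 (0.67 ± 0.17) were the others of the shuttle, of which Slc22a5 (adjusted p = 0.0521) and Slc25a20 (adjusted p = 0.0542) lost their calls without the muscle-rich arrays. Pnpla2 narrowed, with 551, 725, 535 and 242 in fasted liver and 93.7, 96.9, 128 and 95.9 in fed liver, and 3874, 4094, 4783 and 5038 in fasted WAT and 2969, 4326, 4152 and 4680 in fed WAT (2.04 ± 0.34). In gluconeogenesis 4 of 10 changed toward liver (Sds, Gpt, Pc and Slc37a4) and none toward WAT. Fgf21 moved toward liver as well (2.09 ± 0.43), where its change between fasted and fed was 0.51 in liver and -1.58 in WAT. Ppp1r3b was lower in fasted rats in both tissues, by more in WAT (-1.23 in liver, -3.22 in WAT). No gene of the urea cycle, lipoprotein, branched-chain or respiratory chain list was called, with interaction estimates in the respiratory chain of -0.55 to 0.42.

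Of the 6 genes that changed most toward WAT, Tnnc2 (-6.46 ± 1.70), Sh3bgr (-4.49 ± 1.28) and Cmya5 (-4.17 ± 1.18) were brightest on the muscle-rich WAT arrays, and their calls ended without those arrays (adjusted p of 0.0917, 0.196 and 0.178). Stac3, an adaptor known from muscle, kept its call with -2.48 in place of -4.13 ± 0.93, and had 577, 291, 232 and 232 in fasted liver and 2553, 1947, 1852 and 1998 in fed liver. Gsta3 (-3.79 ± 0.72), a glutathione transferase, and Kcnj15 (-3.69 ± 0.50), a potassium channel, were both lower in fasted than in fed liver. Kcnj15 had 29.8, 12.6, 24 and 63.4 in fasted liver and 619, 622, 346 and 521 in fed liver.

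**Figure D5:**
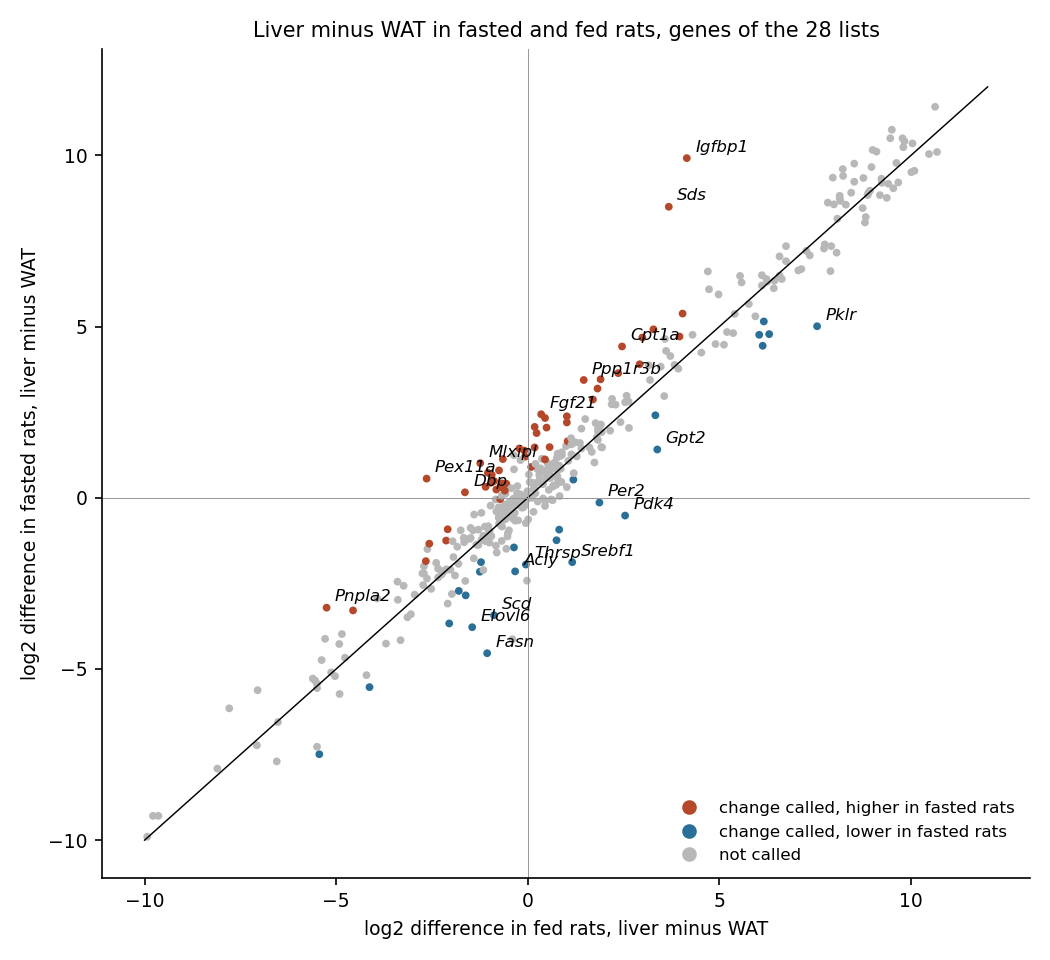
Log2 difference between liver and WAT in fasted rats (vertical axis) against that in fed rats (horizontal axis) for the genes of the 28 metabolic lists, each point a gene over 4 arrays a group, with the line of equal difference. Red points (change called, higher in fasted rats) such as Igfbp1 and Sds lie above the line and blue points (change called, lower in fasted rats) such as Fasn, Srebf1 and Pdk4 below it.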

How the data were processed

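The authors deposited linear intensities, 1 for each probe set of an Affymetrix rat array, which MAS5 gave per the submitters' processing notes. The 2% trimmed mean of every array was brought to 119.18 (before scaling 93.351 to 205.99 over the 24 arrays), and log2(signal + 1.8) was taken, which understates changes of dim genes. Of 31099 probe sets 57 controls were left out. Of the rest 20826 carried 1 gene symbol in the platform annotation, 436 several and 9780 none. Symbols were updated through gene identifiers (20758) or accessions (2), and 66 were kept. The brightest probe set stood for each of 14217 genes, 4525 of which had several. Probe sets disagreed in direction for Lipe, Plin2, Per3, Clock, Rxrg and some others, and widely in size for Apob and Pfkfb3. Genes above the 40th percentile of mean log2 signal were tested with limma 3.58.1 in R 4.3.3 (two-sided, Benjamini-Hochberg adjustment), with no covariate. The fits were tested on simulated data. Precision is limited by the number of arrays.

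The rule for named genes takes the 12 largest differences each way among called genes whose arrays do not overlap, both members of the pairs, up to 3 members of each list per direction, a set of genes fixed by name, and for the change with fasting the 6 largest each way and up to 3 members per list. Other genes were chosen after their values were seen. The groups, lists and pairs were chosen with earlier results of these data known. The alternatives were other scalings, pseudocounts, filters and probe set rules, blocks for replicate number and scan day, and fits without single arrays or without arrays rich in muscle or lymphocyte markers. The fit without lymphocyte-rich arrays, scan day as a random block, and the change with fasting without muscle-rich arrays were added after seeing the data. Genes without a named probe set were not analysed here.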

Additional observations from a re-analysis of the deposited data

Results flagged for a closer look

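In 20 of 418 groups of 4 arrays, counted over the genes named above, 1 array lay far from the other 3, its gap taking up most of the range. Chance marks about 1 group in 20, which is close to this share. In fasted liver these arrays were Bdh1 (1156 on array 9), Crat (668 on array 8), Ebf1 (4.62 on array 8), Gsta3 (60.1 on array 10), Oxct1 (41.9 on array 10), Pltp (200 on array 10), all as signals. In fasted WAT they were Apob (4.29 on array 6), Cidec (5063 on array 9), Fabp1 (43.8 on array 9), Ftcd (5.57 on array 10), G6pc3 (236 on array 9), Ldha (3167 on array 10), Mlxipl (112 on array 8), Pdk4 (1120 on array 6), Pgam1 (2959 on array 10), Pik3r1 (38.5 on array 10), Pygb (212 on array 9), Serpina3l (6.06 on array 9), Slc27a2 (39.3 on array 9), Tm7sf2 (74.5 on array 6). Array 9 accounts for Fabp1, Slc27a2 and Serpina3l in fasted WAT, 3 genes that are bright in liver. Alb was also higher on WAT arrays 9 and 10 than on arrays 6 and 8, and the part of this in the differences was not tested.

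For 61 of 210 named genes (limma interaction, adjusted p under 0.05) the difference between liver and WAT in fasted rats was not that in fed rats. The share of all genes tested was 7.42%, and many of these genes were named because their change was called. The log2 changes toward liver in fasted rats were Igfbp1 (5.77), Sds (4.82), Nim1k (4.33), Colq (3.72), Rab30 (3.58), Pex11a (3.20), Mlxipl (2.25), Fgf21 (2.09), Pnpla2 (2.04), Ppp1r3b (1.98), Cpt1a (1.95), Slc22a5 (1.88), Rxra (1.88), Serpina3l (1.82), Dbp (1.80), Crat (1.77), Mt2A (1.69), Slc16a1 (1.66), Sc5d (1.57), Nfil3 (1.56), Pfkfb1 (1.47), Gpt (1.42), Gpd2 (1.39), Gcgr (1.37), Insr (1.37), Bhlhe40 (1.29), H6pd (1.28), Cebpb (1.27), Agpat3 (1.26), Slc37a4 (1.17), Pc (1.17), Mat2a (0.88), G0s2 (0.81), Hadhb (0.68), Slc25a20 (0.67). Those toward WAT were Tnnc2 (-6.46), Sh3bgr (-4.49), Cmya5 (-4.17), Stac3 (-4.13), Gsta3 (-3.79), Kcnj15 (-3.69), Fasn (-3.48), Pdk4 (-3.06), Srebf1 (-3.05), Scd (-2.55), Pklr (-2.53), Elovl6 (-2.33), Adrb3 (-2.04), Per2 (-2.02), Acacb (-1.99), Gpt2 (-1.97), Thrsp (-1.90), Acly (-1.81), Psat1 (-1.77), Acaca (-1.62), Adra1b (-1.51), Aacs (-1.40), Ehhadh (-1.29), Angptl8 (-1.09), Errfi1 (-0.92), Tkt (-0.92). Without the muscle-rich WAT arrays the calls of Acacb, Adrb3, Angptl8, Bhlhe40, Cmya5, G0s2, Gcgr, Insr, Psat1, Rxra, Scd, Serpina3l, Sh3bgr, Slc22a5, Slc25a20 and Tnnc2 ended, with all signs kept. Some of these calls were fragile under other alternatives too: of 26 run, 20 ended the call of Gcgr, 19 that of Insr, 16 that of Rxra, 14 that of G0s2, 10 that of Adrb3 and 9 that of Serpina3l, and of 25 run, 17 ended that of Acacb and 15 those of Cmya5 and of Sh3bgr. With the mean of probe sets the calls of Slc16a1 (0.55, adjusted p = 0.515), Agpat3 (0.59, 0.435) and Mat2a (0.69, 0.316) ended, so these changes depend on the probe set used.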

How the results depend on the processing

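Most counts stayed within 1.5 times under the alternatives run. Median centring called 3985 genes higher and 2532 lower in liver, a share higher of 61.1% against 38.3%, and at 2-fold 56% against 37.6%. A pseudocount of 16 left 306 genes lower at 8-fold, and the 60th percentile filter, which tests fewer genes, left 1492 lower at 2-fold and 321 at 8-fold. For the change with fasting, scan day as a block called 1199 genes (677 toward liver, 522 toward WAT), and leaving out the muscle-rich WAT arrays, a choice made after seeing the data, called 290 toward liver; the cause of the first was not tested, and the other has fewer arrays. Leaving out each array in turn gave 5967 to 6345 calls (2281 to 2407 higher, 3670 to 3938 lower) for the tissues, and 585 to 836 (325 to 478 toward liver, 246 to 358 toward WAT) for the change with fasting.

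The labels do not say whether equal replicate numbers mark the same rat. Deviations of same-numbered liver and WAT arrays correlated at 0.0345 to 0.0734, under 0.1, though every array correlated best with its own number, a hint from the data and not the design. With replicate number as a block 6361 genes were called (2411 higher, 3950 lower), and 644 for the change with fasting (361 toward liver, 283 toward WAT); Pdk4 (-0.52, adjusted p = 0.00509), Gys2 (0.40, 0.0407), Dgat2 (-0.28, 0.043) and Acsl1 (0.19, 0.047) gained a call. Scan day as a random block, added after seeing the data, called 5617 (2162 higher, 3455 lower; consensus correlation 0.461). A fixed block of scan day for the tissues and fits within a day were not run, since 0 days hold both tissues.

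Among named genes, 10 values changed sign. Under quantile normalization these were Acsl1 (-0.30), Atp5f1a (-0.39), Etfa (-0.26) and Pck1 (-0.19); under median centring Bckdhb (0.36), Ces1d (0.33), Hadhb (0.37) and Eno1 (0.02); and with the mean of probe sets Clock (0.04) and Plin2 (-0.18). In all, 31 of 209 named differences and 64 of 210 changes with fasting crossed the threshold or turned under at least 1 alternative. Signals under 15.5 limit the size of the largest differences.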
